A study of Mus musculus with 24 samples.

Results

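Cortical collecting ducts are the tubules that carry urine from the cortex of the kidney towards the medulla. Their wall mixes principal cells, which take up water through aquaporins and sodium through the channel ENaC under the control of vasopressin and aldosterone, with intercalated cells, which move acid and base. Type A intercalated cells secrete acid with a V-ATPase proton pump and the basolateral exchanger AE1, encoded by Slc4a1. Type B intercalated cells secrete bicarbonate through pendrin, encoded by Slc26a4. Aqp2, the vasopressin-regulated water channel of the apical side, marks principal cells. Single microdissected tubules were ranked here by the balance of the 2 transcripts Aqp2 and Slc26a4, and the tubules at the ends of that ranking were compared with each other across all other genes.

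The series holds 24 libraries, each made from the polyA RNA of 1 microdissected tubule, with 3 tubules from each of 4 wild-type (WT) and 4 mutant (MUT) mice. All mice were male C57BL/6, 10 weeks old, kept 1 per cage on normal chow. MUT mice carried Thr551Ala and Ser552Ala changes in beta-catenin per the labels' protocol, while the deposited legend names Ser552Ala alone. The treatment field reads vehicle for both genotypes and the protocol describes no treatment, so treatment did not differ between any groups compared here.

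The members were chosen by measured values. For each tubule the score was log2(Aqp2 + 1) minus log2(Slc26a4 + 1), in TPM, a transcript abundance per unit of length expressed relative to all transcripts of the tubule. Within each genotype the 4 highest and the 4 lowest tubules were taken, which gave 8 Aqp2-high and 8 Slc26a4-high tubules, 16 of 24 in all, and left 8 in the middle. Ranking all 24 tubules together gave the same classes. Aqp2 in the 8 Aqp2-high tubules ran from 16325 to 30070 TPM with a median of 23142, and in the 8 Slc26a4-high tubules from 9501 to 13983 TPM with a median of 12183. Slc26a4 ran from 820 to 1752 TPM (median 1301) in the first class and from 1695 to 2331 TPM (median 1972) in the second. Both transcripts were therefore abundant in every tubule, and the classes differed in their balance: the ratio of class means was 1.89 for Aqp2 and, in the other direction, 1.57 for Slc26a4. The score averaged 4.15 ± 0.501 (SD, n = 8) in the Aqp2-high and 2.58 ± 0.272 (SD, n = 8) in the Slc26a4-high class. Just inside and outside the limits stood scores of 3.70 and 3.38 at the upper limit in WT, 2.75 and 2.96 at the lower limit in WT, 3.60 and 3.17 at the upper limit in MUT, and 2.85 and 2.86 at the lower limit in MUT. These 2 genes made the classes and were not tested.

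**Figure D1:**
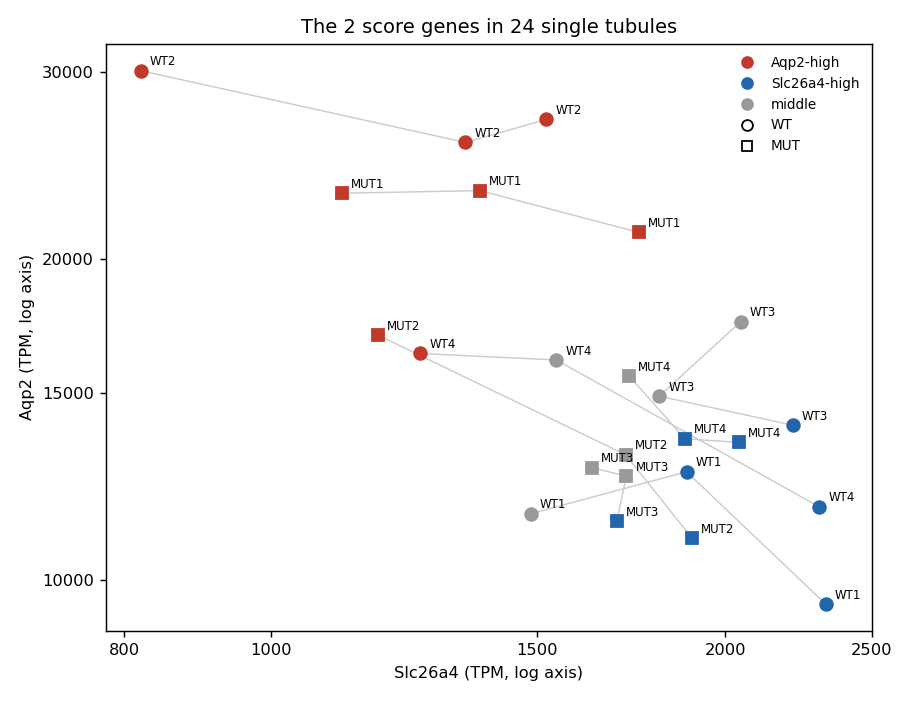
TPM of Aqp2 against Slc26a4 on log axes for the 24 tubules, coloured by class, with circles for WT, squares for MUT and grey lines joining the 3 tubules of a mouse. The 3 tubules of WT mouse 2 and the 3 of MUT mouse 1 all lie at the top, at 21208 TPM of Aqp2 or more, and the Slc26a4-high tubules, from 6 mice, lie at 13983 TPM or less.

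Tubules of 1 mouse resembled each other in the score: 72.0% of its sum of squares lay between the 8 mice. All 3 tubules of WT mouse 2 and all 3 of MUT mouse 1 were Aqp2-high, and these 2 mice gave 6 of the 8 Aqp2-high tubules. The other 2 came from WT mouse 4 and MUT mouse 2, which each also gave 1 Slc26a4-high tubule and are the only mice with both classes. The remaining Slc26a4-high tubules came from WT mice 1 (2 tubules) and 3 (1 tubule) and MUT mice 3 (1 tubule) and 4 (2 tubules). Nothing in the labels says whether the mice were dissected on shared days, so the classes cannot be told apart from differences between mice in the comparison of classes alone. The counts over all genes, and those of several gene lists, are therefore also given within mice.

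Because the data bear on genes that moved together with the 2 score genes, 4 promoters are shown, those of the score genes and of 1 gene that followed each of them. Each is the RefSeq window from 250 bases before to 50 bases after the gene start in build GRCm38.p6. The deposited table was made on GRCm39, so only the letters are used, and the coordinates belong to the older build. Capitals mark a match to 1 of 4 cores searched on both strands, the cyclic AMP response element TGACGTCA, the forkhead core GTAAACA, the GATA core AGATAA and the ETS core CGGAAG. The windows are Aqp2 at chr15:99578806-99579105 on the plus strand, Avpr2 at chrX:73891852-73892151 on the plus strand, Slc26a4 at chr12:31559935-31560234 on the minus strand and Tldc2 at chr2:157086760-157087059 on the plus strand.
Aqp2: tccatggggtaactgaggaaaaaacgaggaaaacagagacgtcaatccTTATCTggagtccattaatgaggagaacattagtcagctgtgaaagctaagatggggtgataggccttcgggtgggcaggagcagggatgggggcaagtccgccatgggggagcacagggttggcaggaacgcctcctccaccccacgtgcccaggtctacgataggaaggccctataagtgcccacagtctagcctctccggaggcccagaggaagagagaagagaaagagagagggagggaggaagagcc
Avpr2: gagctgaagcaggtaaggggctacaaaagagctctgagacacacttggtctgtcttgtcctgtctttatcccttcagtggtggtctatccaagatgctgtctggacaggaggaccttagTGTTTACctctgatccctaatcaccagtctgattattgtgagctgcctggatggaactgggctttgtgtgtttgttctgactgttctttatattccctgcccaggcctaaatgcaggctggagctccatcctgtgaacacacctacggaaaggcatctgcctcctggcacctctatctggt
Slc26a4: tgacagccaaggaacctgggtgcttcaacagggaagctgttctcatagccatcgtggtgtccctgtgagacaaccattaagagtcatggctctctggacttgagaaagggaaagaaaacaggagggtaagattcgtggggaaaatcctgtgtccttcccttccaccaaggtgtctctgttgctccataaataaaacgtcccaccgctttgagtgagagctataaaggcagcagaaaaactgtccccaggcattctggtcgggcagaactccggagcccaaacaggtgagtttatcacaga
Tldc2: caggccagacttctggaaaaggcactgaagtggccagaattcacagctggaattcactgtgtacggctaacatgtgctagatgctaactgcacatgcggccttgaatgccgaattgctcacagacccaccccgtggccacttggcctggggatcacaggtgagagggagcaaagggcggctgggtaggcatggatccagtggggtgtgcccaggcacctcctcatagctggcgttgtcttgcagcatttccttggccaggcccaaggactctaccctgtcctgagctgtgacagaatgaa
The Aqp2 window held 1 GATA core on its reverse strand, the Avpr2 window 1 forkhead core on its reverse strand, and the other 2 windows none of the 4. The forkhead core stood in 3.14% of the 10383 windows of tested genes, 3.66% of the 848 windows of genes higher in Aqp2-high tubules and 3.07% of the 456 windows of genes higher in Slc26a4-high tubules. The GATA core stood in 7.80%, 8.25% and 8.33% of the same 3 sets, the cyclic AMP response element in 3.54%, 2.59% and 3.07%, and the ETS core in 35.0%, 25.1% and 28.9%. These are counts of letters in 1 window per gene, with no test.

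Each library's TPM summed to the same total, so sequencing depth is unknown. Genes listed above 0 TPM numbered 27941 to 32480 in the Aqp2-high and 23580 to 31109 in the Slc26a4-high tubules, whose part in the differences was not tested, and the 10 most abundant genes took 7.57% to 9.49% of the TPM of a tubule. Markers of the proximal tubule, the thick ascending limb or erythrocytes summed to more than 1000 TPM in 3 of the 16 tubules. Tubule 1 of WT mouse 4 (Aqp2-high) had proximal and thick limb markers. In the Slc26a4-high class, tubule 2 of WT mouse 3 had proximal markers and haemoglobin, and tubule 3 of MUT mouse 4 proximal markers. Markers of the distal convoluted and connecting tubule were not part of these sums and are given below. In bulk RNA of a tubule, fewer cells of a type and less RNA per cell cannot be told apart.

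The comparison asks which genes followed the balance of the 2 transcripts. Among the 15011 genes averaging 1 TPM or more, 1110 were higher in the Aqp2-high tubules, 7.39% of those tested, and 606 were higher in the Slc26a4-high tubules, 4.04% (limma on log2(TPM + 1), Benjamini-Hochberg adjusted p under 0.05, genotype as a covariate and mouse as a random effect). Differences are Aqp2-high minus Slc26a4-high on that scale, where the change of genes near 0 comes out too small. The higher genes were lower in abundance and changed more, with a median mean level of 21.2 TPM and a median log2 difference of 0.45, against 88.0 TPM and -0.32 for the lower genes. A difference of more than 1 log2 unit was found in 109 of the higher and 11 of the lower genes. All 8 Aqp2-high tubules lay above all 8 Slc26a4-high tubules in 256 genes, 1.71% of those tested, and below them in 166, 1.11%. Since the tubules were chosen by 2 transcripts of the same libraries, the adjusted p-values rank associations with the score and do not measure the effect of a treatment.

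The counts depended on the scaling and on the mice. With median-ratio scaling, which moved the median of all genes by -0.06, 711 genes were higher and 974 lower, and with quantile normalization 821 and 815, so the share of higher calls went from 64.7% to 42.2% and 50.2%. Of the 1716 calls, 1317 and 1372 were kept in direction under these scalings and 0 changed sign. With the mouse as a fixed block, where only WT mouse 4 and MUT mouse 2 carry the contrast, 1 gene was called in each direction. Without WT mouse 2 the calls numbered 446 higher and 309 lower, without MUT mouse 1 665 and 372, and without both 41 and 42.

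A within-mouse value used all 24 tubules, with the score as a continuous measure and the mouse as a fixed block, so that only differences between tubules of 1 mouse count. The level rose with the score in 723 genes, 4.82% of those tested, and fell in 558, 3.72%. Of the 1716 genes called between the classes, 99.8% had the same sign within mice and 847 (49.4%) passed the threshold there in the same direction, 492 of the higher and 355 of the lower. The 2 estimates share tubules and the score genes, so the overlap is a description.

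Of the called genes, 5 are given here in the 2 mice with a tubule in each class, the mice behind the fit with a fixed block that called 1 gene in each direction. In WT mouse 4 and MUT mouse 2, the Aqp2-high tubule exceeded the Slc26a4-high tubule by 0.40 and 0.56 log2 units in Avpr2, the V2 vasopressin receptor, and by 0.29 and 0.77 in Slc4a1. Slc4a9, a transporter of type B cells, differed by -0.54 and -0.53, the proton pump subunit Atp6v1e1 by -0.45 and -0.28, and the respiratory chain gene Ndufs1 by -0.32 and -0.33. Single pairs carry no estimate of error, and the Aqp2-high tubule of WT mouse 4 is the one with proximal and thick limb markers, at 1224 and 2099 TPM. The 8 middle tubules, which took no part in the comparison of classes, had medians of 954 TPM for Avpr2, 382 TPM for Slc4a1, 943 TPM for Slc4a9 and 1323 TPM for Atp6v1e1.

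The principal cell markers followed Aqp2 in most cases, with exceptions among the sodium channel genes. Of 19 markers listed, Aqp2 was left out and 18 were tested. Of these, 11 were higher in Aqp2-high tubules and 2 lower, against 7.39% and 4.04% of all genes, and 5 did not pass. Within mice 9 rose and 1 fell with the score. Their median log2 difference was 0.35, against 0.05 over all genes tested, and their summed level without Aqp2 ran from 22017 to 30117 TPM in Aqp2-high and from 17108 to 20240 TPM in Slc26a4-high tubules, without overlap.

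Avpr2, the V2 vasopressin receptor through which Aqp2 is regulated, ran from 1024 to 1733 TPM (median 1328) in Aqp2-high and from 620 to 966 TPM (median 845) in Slc26a4-high tubules. The classes did not overlap, the highest value belonging to tubule 3 of WT mouse 2, which also had the highest score. The log2 difference was 0.65 (SE 0.10, limma adjusted p = 0.00125), and within mice Avpr2 rose by 0.35 log2 units per unit of score (SE 0.04, adjusted p = 6.8e-05). Fxyd4, a regulator of the sodium pump also called CHIF, ran from 6530 to 10863 TPM in the first class and from 3642 to 5943 TPM in the second, again without overlap, with medians of 7983 and 4409 TPM and a difference of 0.82 (SE 0.12, limma adjusted p = 0.000817). Aqp3, the basolateral water channel by which water leaves principal cells, ran from 4533 to 5840 TPM (median 5577) and from 3475 to 4412 TPM (median 3878). Its log2 difference was 0.42 (SE 0.07, limma adjusted p = 0.00173), and its slope within mice, 0.17 per unit of score, did not pass (adjusted p = 0.062). Aqp4, another basolateral water channel, differed by 1.89 (SE 0.33), from 151 to 634 TPM against 30.5 to 157 TPM. Aqp4 also stands on the list of urothelial and medullary duct markers.

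Kcnj1, the potassium secretory channel ROMK, ran from 1079 to 1475 TPM in Aqp2-high and from 634 to 933 TPM in Slc26a4-high tubules, with a log2 difference of 0.60 (SE 0.08). Elf5, an ETS family factor of principal cells, was low in level but well separated, from 16.5 to 34.7 TPM against 4.34 to 11.5 TPM, with a difference of 1.57 (SE 0.19). Npnt, the integrin ligand nephronectin, differed by 0.80 (SE 0.11) and Ptgs1, a cyclooxygenase of prostaglandin synthesis, by 0.48 (SE 0.06), both without overlap. Calls for these 4 genes and for Avpr2, Fxyd4, Aqp3 and Aqp4 held in all 24 fits that left out 1 tubule or 1 mouse. Of the other markers called higher, Apela held in all 24. The call for Hsd11b2 ended in 19 of the 24 and that for Tmem45b in 3. Both were also lost with median-ratio scaling (limma adjusted p = 0.229 for Hsd11b2 and 0.0922 for Tmem45b). None of the 24 fits leaves out both WT mouse 2 and MUT mouse 1. Without both, 1 of the 18 tested principal cell markers was called, and with the mouse as a fixed block 0.

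The subunits of ENaC did not follow Aqp2. Scnn1b ran from 845 to 1192 TPM and from 1034 to 1212 TPM in the 2 classes, a log2 difference of -0.09 (SE 0.06, limma adjusted p = 0.389), and Scnn1g differed by 0.11 (SE 0.06, adjusted p = 0.271). Scnn1a was lower in Aqp2-high tubules, by -0.23 (SE 0.07, adjusted p = 0.0455), a call that ended in 20 of the 24 fits that left out a tubule or a mouse. Kcne1, a potassium channel subunit on the same list, was also lower, at -0.66 (SE 0.19), with a call that ended in 14 of the 24. The transcription factors Gata3 and Tfcp2l1 differed by 0.19 and 0.14 with adjusted p of 0.324 and 0.0514. Ctnnb1, which encodes beta-catenin, differed by -0.09 (SE 0.05, adjusted p = 0.322).

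**Figure D2:**
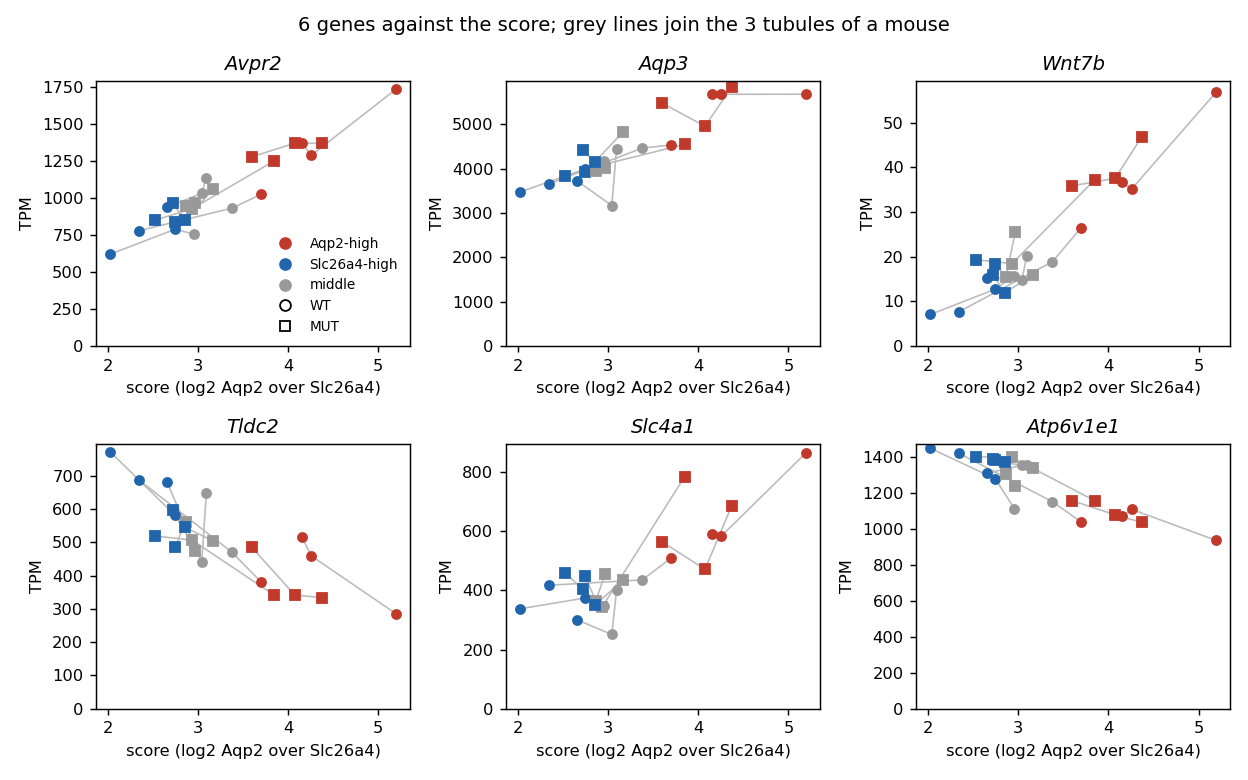
TPM of 6 genes against the score in the 24 tubules, with class colours, circles for WT, squares for MUT and grey lines joining the tubules of a mouse. Avpr2, Aqp3, Wnt7b and Slc4a1 lie higher and Tldc2 and Atp6v1e1 lower in the Aqp2-high tubules, and only for Tldc2 do the classes overlap.

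Intercalated cell genes split by type. Of 6 type B markers, Slc26a4 was left out and 5 were tested, of which 3 were higher in Slc26a4-high tubules and 1 was higher in Aqp2-high tubules. Of 7 type A markers, all tested, 5 were higher in Aqp2-high tubules and 1, Hmx2, was lower. Over all genes, 7.39% were higher in Aqp2-high and 4.04% in Slc26a4-high tubules. Within mice 1 type B marker rose and 4 fell with the score, and 4 type A markers rose and 1 fell. Without both WT mouse 2 and MUT mouse 1, 1 type B marker and 0 type A markers were called. The medians of the lists were -0.45 and 0.63. Summed, the type A markers ran from 1491 to 2076 TPM in Aqp2-high and from 1227 to 1665 TPM in Slc26a4-high tubules, and the type B markers without Slc26a4 from 1117 to 1940 TPM and from 1758 to 2481 TPM. Median sums in Aqp2-high, middle and Slc26a4-high tubules were 1720, 1466 and 1488 TPM for type A. For type B they were 1489, 1806 and 2155 TPM, so only the type B middle median lay between the classes. Since 5 of 7 type A markers were also higher in Aqp2-high tubules, principal-rich against type B-rich would cover the measured difference in part. The classes are therefore named by their score genes.

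Tldc2, whose promoter is shown above, ran from 286 to 517 TPM (median 361) in Aqp2-high and from 485 to 771 TPM (median 589) in Slc26a4-high tubules. The classes overlapped between 485 and 517 TPM, and the log2 difference was -0.65 (SE 0.13, limma adjusted p = 0.00586). Insrr, the insulin receptor-related receptor that senses alkaline pH, differed by -0.62 (SE 0.13, adjusted p = 0.00673). Slc4a9, the basolateral transporter AE4 of type B cells, ran from 606 to 1077 TPM and from 879 to 1307 TPM and differed by -0.45 (SE 0.12, adjusted p = 0.0251). That call ended in 5 of the 24 fits that left out a tubule or a mouse, while within mice Slc4a9 fell by 0.42 log2 units per unit of score (SE 0.04, adjusted p = 2e-05). Slc4a8, a sodium-driven chloride and bicarbonate exchanger placed on the same list, went the other way, with a difference of 0.42 (SE 0.08, adjusted p = 0.00503).

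Among the type A genes, Slc4a1 ran from 471 to 864 TPM (median 587) in Aqp2-high and from 300 to 457 TPM (median 389) in Slc26a4-high tubules. Every Aqp2-high tubule lay above every Slc26a4-high tubule, and the log2 difference was 0.68 (SE 0.13, limma adjusted p = 0.00448). The slope within mice was 0.39 per unit of score with an adjusted p of 0.053. Aqp6, an intracellular water channel of type A cells, also separated fully, from 197 to 375 TPM against 81.7 to 185 TPM, with a difference of 0.89 (SE 0.18). Slc26a7, a basolateral chloride transporter, differed by 1.46 (SE 0.32) and the transcription factor Dmrt2 by 0.63 (SE 0.14). Adgrf5 differed by 0.52 (SE 0.12). The calls for Dmrt2 and Adgrf5 were lost without WT mouse 2, where 3 of the type A list were called in place of 5. Kit, on the same list, differed by 0.12 (SE 0.08, adjusted p = 0.388), and Hmx2, a transcription factor, by -0.67 (SE 0.17, adjusted p = 0.0229). The Hmx2 call was lost without tubule 2 of WT mouse 4, without WT mouse 1 and without either of MUT mice 1 and 2, with a highest adjusted p of 0.0889.

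Among genes shared by both intercalated types and subunits of the V-ATPase proton pump, all that were called were higher in Slc26a4-high tubules. In each of these lists 2 members had a positive difference. Of 14 shared markers 8 were higher in Slc26a4-high tubules, against 4.04% of all genes, and 0 in Aqp2-high tubules. Their median was -0.27, and the same number, 8, fell with the score within mice. Of 22 V-ATPase subunits 14 were higher in Slc26a4-high tubules and 0 in Aqp2-high tubules, with a median of -0.21. The summed V-ATPase level ran from 11908 to 13410 TPM in Aqp2-high and from 14336 to 15869 TPM in Slc26a4-high tubules, without overlap. The shared count was 5 without WT mouse 2, without WT mouse 4 or without MUT mouse 2, and the V-ATPase count 8 without WT mouse 2 or without MUT mouse 1. Of the V-ATPase list, 12 fell and 1 rose with the score within mice. Without both WT mouse 2 and MUT mouse 1, each of the 2 lists had 1 call.

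Atp6v1e1, a stalk subunit of the pump, ran from 937 to 1159 TPM (median 1076) in Aqp2-high and from 1280 to 1450 TPM (median 1390) in Slc26a4-high tubules. The separation was complete, at a log2 difference of -0.36 (SE 0.05, limma adjusted p = 0.000527). Atp6v1h, a regulatory subunit, differed by -0.32 (SE 0.05) and Atp6v0d2, a membrane domain subunit of intercalated cells, by -0.38 (SE 0.07). Hepacam2, an intercalated cell surface protein, ran from 257 to 362 TPM against 350 to 473 TPM and differed by -0.49 (SE 0.08, adjusted p = 0.00192). Car2, the cytosolic carbonic anhydrase, ran from 2170 to 2328 TPM and from 2337 to 2617 TPM and differed by -0.15 (SE 0.03, adjusted p = 0.00449), a call lost with quantile normalization (adjusted p = 0.613). Car12, a membrane-bound carbonic anhydrase, differed by -0.57 (SE 0.12). Foxi1, the transcription factor that specifies intercalated cells, differed by -0.28 (SE 0.14, adjusted p = 0.216), the pump subunit Atp6v1b1 by -0.14 (SE 0.16, adjusted p = 0.617) and Rhcg, an ammonia transporter, by 0.10 (SE 0.05, adjusted p = 0.293).

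**Figure D3:**
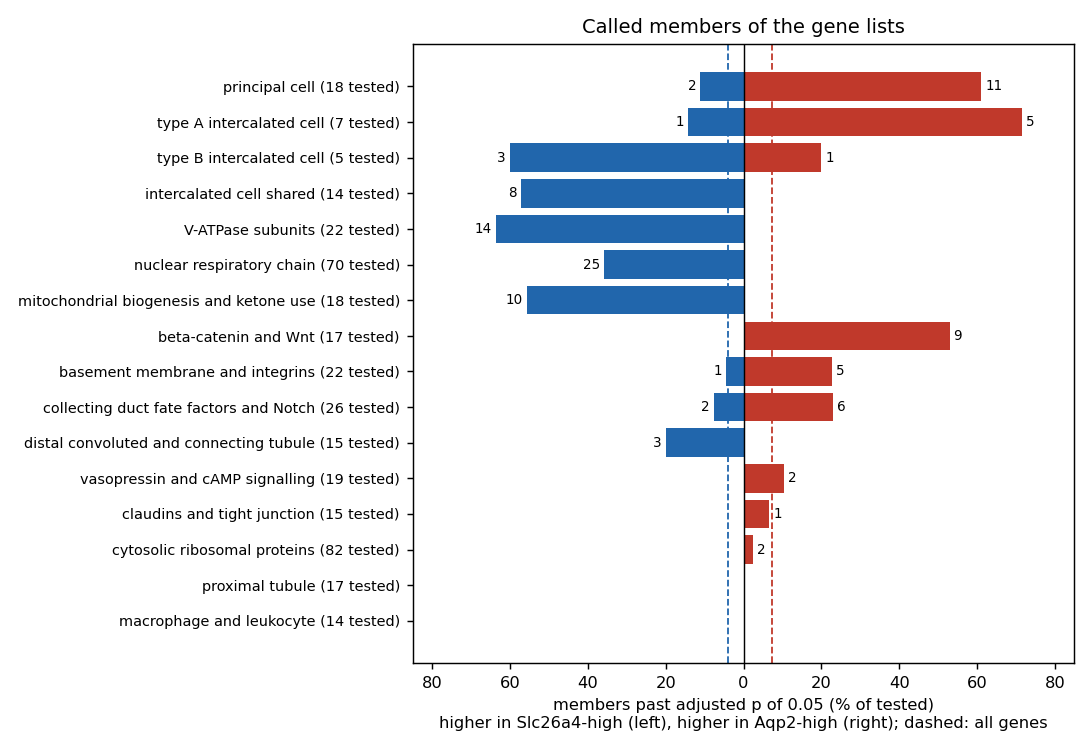
Share of the tested members of 16 gene lists past an adjusted p of 0.05, higher in Slc26a4-high tubules to the left and in Aqp2-high tubules to the right, with counts at the bars and dashed lines for all genes (4.04% and 7.39%). V-ATPase, shared intercalated, respiratory chain and mitochondrial lists have bars on the left alone, and the beta-catenin and Wnt list on the right alone.

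Most genes of mitochondrial energy supply had negative differences, which varied in size. Of 70 nuclear genes of the respiratory chain and ATP synthase 25 were higher in Slc26a4-high tubules, against 4.04% of all genes, and 0 in Aqp2-high tubules. Their median was -0.14, with 8 positive, and 24 fell with the score within mice. Leaving out 1 tubule gave 22 to 34 calls. The second list held 18 tested genes of the citric acid cycle, ketone use and mitochondrial biogenesis. Of these 10 were higher in Slc26a4-high and 0 in Aqp2-high tubules, with a median of -0.24, and 9 fell with the score within mice. Their summed level ran from 5765 to 6549 TPM in Aqp2-high and from 7106 to 8158 TPM in Slc26a4-high tubules. With median-ratio scaling 35 of the respiratory chain and 11 of the second list were called, and with quantile normalization 18 and 9, all in the same direction. The respiratory chain median was -0.20 with median-ratio scaling and -0.08 with quantile normalization.

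Ndufs1, a subunit of complex I, ran from 234 to 273 TPM (median 246) in Aqp2-high and from 287 to 343 TPM (median 312) in Slc26a4-high tubules. All 16 values fell on their own side, and the log2 difference was -0.33 (SE 0.03, limma adjusted p = 0.000274). Sdhb of complex II, Uqcrc2 of complex III and Atp5pb of the ATP synthase differed by -0.30 (SE 0.04), -0.30 (SE 0.03) and -0.36 (SE 0.05), each without overlap. Idh3a, a subunit of isocitrate dehydrogenase, differed by -0.35 (SE 0.04), Acat1, an enzyme of ketone use, by -0.38 (SE 0.05), and Ckmt1, the mitochondrial creatine kinase, by -0.41 (SE 0.05). Their classes did not overlap. Of 7 tested genes encoded by mitochondrial DNA 4 were higher in Slc26a4-high tubules, with mt-Nd1 from 3240 to 6220 TPM against 4289 to 8963 TPM and a difference of -0.42 (SE 0.13, adjusted p = 0.0414). That count was 6 with median-ratio scaling, 1 with quantile normalization, 0 without WT mouse 2, WT mouse 3, MUT mouse 1, MUT mouse 2 or MUT mouse 4, and 1 without MUT mouse 3.

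Glycolysis genes did not move as 1 group. Of 16 tested, 3 were higher in Aqp2-high and 2 in Slc26a4-high tubules (7.39% and 4.04% of all genes). With median-ratio scaling these counts were 1 and 5, and leaving out 1 tubule gave 1 to 4 in each direction. The 2 lactate dehydrogenase subunits went in opposite directions. Ldhb ran from 4796 to 5626 TPM against 5862 to 6562 TPM, a difference of -0.26 (SE 0.04, limma adjusted p = 0.00197). Ldha ran from 1274 to 1966 TPM against 966 to 1423 TPM, a difference of 0.32 (SE 0.09, adjusted p = 0.0365) whose call ended in 14 of the 24 fits that left out a tubule or a mouse. Slc2a1, the glucose transporter GLUT1, differed by 0.31 (SE 0.07), a call lost without WT mouse 2. Of 82 cytosolic ribosomal protein genes 2 were called, both higher in Aqp2-high tubules, and 0 with median-ratio scaling.

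Genes of the Wnt pathway that were called between the classes were all higher in the Aqp2-high tubules. Wnt ligands bind Frizzled and LRP receptors and stabilise beta-catenin, which then acts with TCF factors. Of 25 listed genes 17 were tested. Axin2, Lef1, Tcf7, Lgr5, Nkd1, Nkd2, Sp5 and Apcdd1 averaged under 1 TPM and were not tested. Of the 17 tested genes 9 were higher in Aqp2-high tubules, against 7.39% of all genes, and 0 were lower, with a median of 0.35. The count was 5 without WT mouse 2 and 6 with median-ratio scaling, and 6 rose and 1 fell with the score within mice.

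Wnt7b, the ligand made by the collecting duct, ran from 26.5 to 56.9 TPM (median 37.0) in Aqp2-high and from 7.09 to 19.4 TPM (median 14.0) in Slc26a4-high tubules. No value crossed, and the log2 difference was 1.46 (SE 0.19, limma adjusted p = 0.000604), with a slope within mice of 0.87 per unit of score (SE 0.11). Wnt9b, the ligand that induces nephrons in the embryo, differed by 0.93 (SE 0.21), a call lost without WT mouse 2 (adjusted p = 0.11). Tcf7l1, a TCF factor, differed by 0.51 (SE 0.09), and Rnf43, a ligase that removes Wnt receptors, by 0.35 (SE 0.07). Myc, a target of beta-catenin and an immediate early gene, ran from 9.71 to 16.8 TPM against 2.32 to 8.20 TPM, a difference of 1.21 (SE 0.23), but its slope within mice did not pass (0.55, SE 0.28, adjusted p = 0.26). Ccnd1, cyclin D1, differed by 0.44 (SE 0.11), a call lost without WT mouse 2, WT mouse 4 or MUT mouse 1 (highest adjusted p = 0.125) and with median-ratio scaling (adjusted p = 0.065). The immediate early list as a whole had 2 of 20 tested genes called, Myc and Ier5, and the call for Ier5 ended in 12 of the 24 fits that left out a tubule or a mouse.

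The 12 leading genes higher in Aqp2-high tubules, those with the largest difference among called genes of at least 5 TPM without overlap, included 1 of the principal cell list, Elf5. Lcn2, the iron-siderophore carrier lipocalin 2, ran from 138 to 385 TPM (median 194) against 26.2 to 92.1 TPM (median 42.2). It differed by 2.07 (SE 0.25, limma adjusted p = 0.000389) and rose by 1.20 per unit of score within mice (SE 0.17). Lcn2 is also used as a marker of tubule injury. Of 10 tested genes of that list, 6 with a positive difference, it was the 1 called higher, and 2 were lower, Spp1, osteopontin, at -1.08 (SE 0.28) and Cp, ceruloplasmin, at -0.78 (SE 0.18). Within mice 2 genes of the list rose and 1 fell, and the calls for Spp1 and Cp ended in 4 and 2 of the 24 fits that left out a tubule or a mouse. Muc20, a mucin, ran from 173 to 556 TPM against 41.8 to 155 TPM and differed by 1.82 (SE 0.26). Ptger1, the prostaglandin E2 receptor EP1, ran from 141 to 395 TPM against 39.1 to 114 TPM and differed by 1.59 (SE 0.24). These 3 genes were the most abundant of the 12.

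The other leading genes on that side had medians of at most 62.8 TPM in the Aqp2-high class. Sult2b1, a cholesterol sulfotransferase, differed by 1.97 (SE 0.29), Cald1, the actin-binding protein caldesmon, by 1.96 (SE 0.25), and Tril, a partner of Toll-like receptor 4, by 2.05 (SE 0.22). Il34, a ligand of the macrophage receptor CSF1R, ran from 23.2 to 50.6 TPM against 4.59 to 19.1 TPM and differed by 1.58 (SE 0.22). Aldh1a1, which makes retinoic acid, differed by 1.57 (SE 0.21) and Bok, a BCL2 family member, by 1.53 (SE 0.22). Ranbp3l differed by 2.05 (SE 0.29). Ier5l had the largest difference, 2.38 (SE 0.35), and the Slc26a4-high tubules of MUT mouse 4 held only 1.05 and 2.05 TPM of it. All 12 calls held in the 24 fits that left out a tubule or a mouse.

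**Figure D4:**
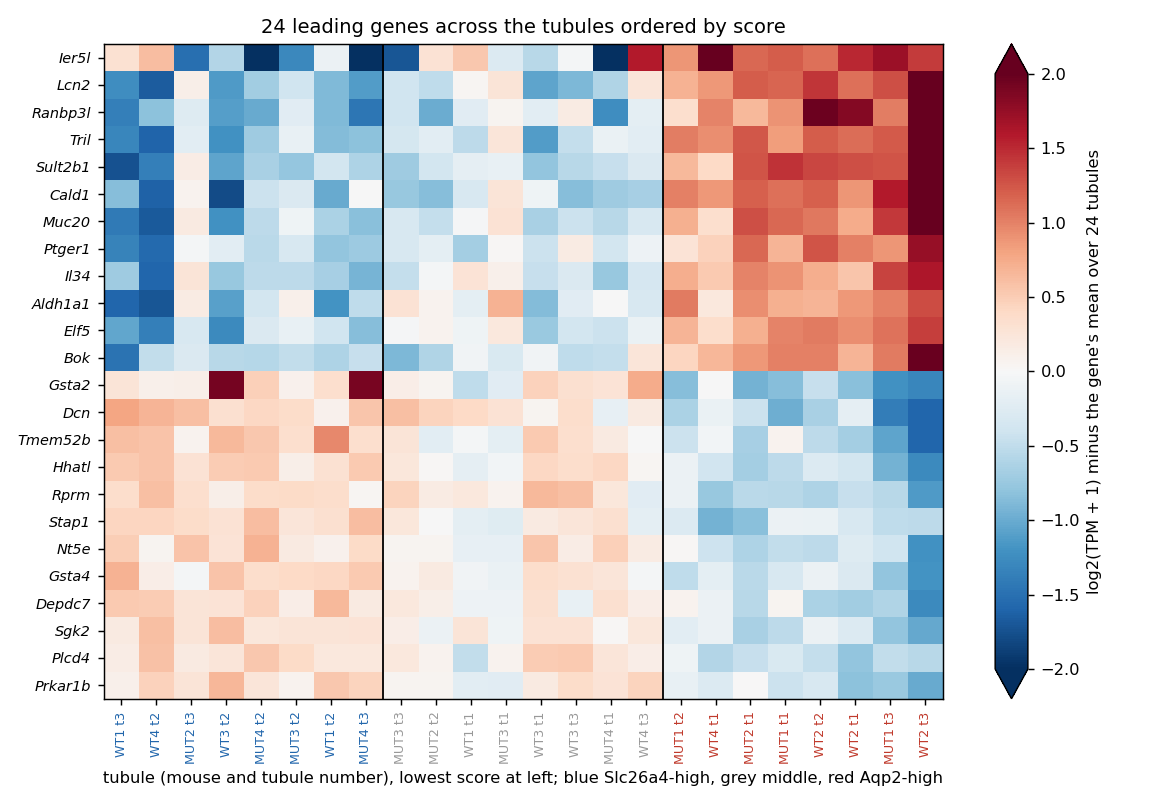
Log2(TPM + 1) minus the mean over 24 tubules for the 12 leading genes of each direction, in tubules ordered from the lowest score (left) to the highest, with black lines between the classes. The change from blue to red in the upper genes is sharpest at the limit of the Aqp2-high class, and tubule 3 of WT mouse 2, at the far right, holds the highest Lcn2, 385 TPM.

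On the other side the leading differences were smaller, from -1.37 to -0.77. Gsta2 and Gsta4, glutathione transferases of detoxification, differed by -1.37 (SE 0.33) and -0.83 (SE 0.16). Gsta2 has close relatives in the genome among which reads can be split, and its call was lost without WT mouse 2 or MUT mouse 1, with a highest adjusted p of 0.109. Dcn, the matrix proteoglycan decorin, ran from 18.6 to 52.3 TPM (median 36.7) against 61.2 to 101 TPM (median 81.2) and differed by -1.17 (SE 0.22). Hhatl ran from 51.7 to 116 TPM against 137 to 188 TPM and differed by -0.98 (SE 0.16), and within mice it fell by 0.74 per unit of score (SE 0.06, limma adjusted p = 3.4e-06). Nt5e, the ectoenzyme CD73 that makes adenosine, differed by -0.83 (SE 0.15), Sgk2, a kinase related to Sgk1, by -0.80 (SE 0.14), and Plcd4, a phospholipase C, by -0.80 (SE 0.10). Prkar1b, a regulatory subunit of protein kinase A, differed by -0.77 (SE 0.16) and did not pass within mice (adjusted p = 0.066).

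Some markers of the connecting tubule, the segment just upstream, were also higher in Slc26a4-high tubules. Of 15 tested distal convoluted and connecting tubule genes 3 were higher there, against 4.04% of all genes, and 0 in Aqp2-high tubules. Within mice 3 fell with the score. The list had a median of -0.23, with 5 positive, and a median of 0.03 without WT mouse 2. The count of 3 was 2 without WT mouse 1 or WT mouse 2, and 1 without both WT mouse 2 and MUT mouse 1. Fxyd2, the gamma subunit of the sodium pump, ran from 150 to 907 TPM (median 403) in Aqp2-high and from 859 to 1524 TPM (median 1146) in Slc26a4-high tubules. It was the largest called difference in that direction among the genes named here, at -1.65 (SE 0.33, limma adjusted p = 0.00491), with a small overlap between 859 and 907 TPM. Tmem52b differed by -1.06 (SE 0.22). Calb1, the calcium buffer calbindin, ran from 95.7 to 342 TPM against 312 to 435 TPM and differed by -0.78 (SE 0.20, adjusted p = 0.0201), a call lost without WT mouse 1 or WT mouse 2. Slc12a3, the thiazide-sensitive cotransporter that defines the distal convoluted tubule, was near 0 in both classes, with medians of 0.385 and 0.22 TPM. The summed level of the list ran from 892 to 4705 TPM (median 1421) in Aqp2-high and from 1956 to 6454 TPM (median 3611) in Slc26a4-high tubules. Whether the position of a tubule along the duct moved with its score was not tested, as the labels give no position.

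Channel, receptor and matrix genes gave members to both sides, and osmolyte genes to the Aqp2-high side. Over all genes, 7.39% were higher in Aqp2-high and 4.04% in Slc26a4-high tubules. Of 19 tested chloride channels and anion exchangers 5 were higher in Aqp2-high and 4 in Slc26a4-high tubules, most of them named above by cell type. The count of 4 was 1 without tubule 2 of WT mouse 4, WT mouse 2 or MUT mouse 4, and 2 without MUT mouse 2. Slc26a2, a sulfate transporter, ran from 45.9 to 78.2 TPM against 26.1 to 44.3 TPM and differed by 0.73 (SE 0.14). Of 9 tested potassium channel genes 3 were higher, among them Kcnk1 at 0.37 (SE 0.05), and 2 lower. The lower count was 0 without any 1 of 7 of the 8 mice, and 1 without MUT mouse 3. Of 13 tested purinergic, prostaglandin and metabolite receptor genes 4 were higher and 3 lower, P2rx4 at -0.23, Ptges at -0.44 and Casr at -0.55. The lower count was 0 without tubule 2 of WT mouse 4, tubule 1 of MUT mouse 2, MUT mouse 1, MUT mouse 2 or MUT mouse 4, and 1 without WT mouse 2 or WT mouse 3. P2ry2, a nucleotide receptor of principal cells, ran from 21.4 to 33.4 TPM against 11.5 to 21.0 TPM and differed by 0.61 (SE 0.12, limma adjusted p = 0.00549). P2ry14, a receptor for UDP-glucose, differed by 1.08 (SE 0.24), a call lost without MUT mouse 1 (adjusted p = 0.0502). Slc6a12, the betaine transporter induced by hypertonicity, was low, from 2.18 to 19.8 TPM in Aqp2-high and from 0 to 2.66 TPM in Slc26a4-high tubules, with a difference of 2.25 (SE 0.38). Akr1b3, aldose reductase, which makes sorbitol, differed by 0.50 (SE 0.12). These were 2 of 9 tested osmolyte genes, with the other 7 not called. Among 22 tested basement membrane and integrin genes 5 were higher and 1 lower, and the count of 5 was 3 without WT mouse 2. Lamb1, a laminin chain, differed by 0.53 (SE 0.10), Col4a4, a collagen IV chain, by 0.37 (SE 0.08), and Itga6, an integrin, by -0.38 (SE 0.08), and the call for Col4a4 was lost without WT mouse 2. Of 26 tested factors of duct fate and Notch signalling 6 were higher and 2 lower, among them Pax2, a kidney development factor, at 0.48 (SE 0.09), and Grhl2, an epithelial factor, at 0.27 (SE 0.06), a call lost without WT mouse 2 or MUT mouse 1. The counts of 6 and 2 were 2 and 1 without WT mouse 2, 5 and 0 without MUT mouse 2, 7 and 1 without WT mouse 1, and 4 and 1 without MUT mouse 1.

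Other groups had called shares near or below the 11.4% of all genes called in either direction. In the vasopressin and cyclic AMP list, to which the V2 receptor was not assigned, 2 of 19 tested genes passed, Ptger1 and Pde4d. The call for Pde4d ended in 9 of the 24 fits that left out a tubule or a mouse, with median-ratio scaling (adjusted p = 0.189) and with quantile normalization (adjusted p = 0.0935). The aldosterone and sodium transport list had 2 of 17 called, Fxyd2 and Stk39, and the call for Stk39 ended in 7 of the 24 and with median-ratio scaling (adjusted p = 0.122). Nr3c2, the mineralocorticoid receptor, differed by 0.22 (SE 0.07, limma adjusted p = 0.0705) and its target Sgk1 by -0.07 (SE 0.28, adjusted p = 0.903). Of 15 claudin and tight junction genes only Cldn19 was called, at 2.01 (SE 0.53), and it ran from 4.84 to 27.0 TPM against 0.04 to 11.2 TPM. That call ended in 7 of the 24 fits, with a highest adjusted p of 0.0843. Cldn19 also stands on the list of thick ascending limb markers, which summed to 2099 TPM in tubule 1 of WT mouse 4, an Aqp2-high tubule. Cldn8, a claudin of the collecting duct, differed by 0.30 (SE 0.10, adjusted p = 0.0779). Endoplasmic reticulum stress genes gave 0 of 17 (1 at an unadjusted p under 0.05), heat shock 1 of 15 (Hspd1), cholesterol synthesis 1 of 21 (Srebf2) and proliferation 1 of 18 (Tyms). The call for Srebf2 ended in 5 of the 24 and with median-ratio scaling (adjusted p = 0.188).

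Markers of other cells gave few calls, and the summed levels of proximal tubule, macrophage and erythrocyte markers overlapped between the classes. Of 17 tested proximal tubule markers limma called 0, with 0 at an unadjusted p under 0.05, and 16 of them had a negative difference. Their sum ran from 26.1 to 1224 TPM (median 77.0) in Aqp2-high and from 51.7 to 2580 TPM (median 444) in Slc26a4-high tubules. Of 14 tested macrophage and leukocyte markers limma called 0, with 1 at an unadjusted p under 0.05, and all 14 were negative, with sums from 97.4 to 1276 TPM (median 325) against 295 to 1794 TPM (median 781). Erythrocyte markers summed to at most 307 TPM in 15 of the 16 tubules and to 24927 TPM in tubule 2 of WT mouse 3. Endothelial markers gave 1 call of 11 (Ehd3), which ended in 17 of the 24 fits that left out a tubule or a mouse, with median-ratio scaling (adjusted p = 0.0746) and with quantile normalization (adjusted p = 0.124). Fibroblast and pericyte markers gave 2 of 5 (Cspg4 higher, Dcn lower). The part of these cells in the differences was not tested. Without the 3 tubules with more than 1000 TPM of proximal, thick limb or erythrocyte markers, 949 genes were higher and 668 lower. Macrophage, endothelial and fibroblast markers did not enter the choice of these tubules.

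The comparison was also made in each genotype, from 1 fit in which both genotypes share the estimated spread and the mouse correlation. In WT tubules 708 genes were called, 4.72% of those tested, 505 of them higher in Aqp2-high tubules. In MUT tubules 133 genes were called, 0.886%, with 71 higher and 62 lower. Of the 708 WT genes, 682 (96.3%) had the same sign in MUT and 489 (69.1%) also had an unadjusted p under 0.05 there, against 66.4% and 13.1% of all genes. Of the 133 MUT genes, 130 (97.7%) had the same sign in WT, and 82 were called in both genotypes, 11.6% of the WT calls and 61.7% of the MUT calls. Both genotypes share the rule that made their classes but no animals.

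For genes described above the 2 genotypes gave these values. Avpr2 differed by 0.72 in WT and 0.58 in MUT, Fxyd4 by 0.86 and 0.79, Slc4a1 by 0.76 and 0.60, Ndufs1 by -0.32 and -0.34, Atp6v1e1 by -0.40 and -0.32, and Wnt7b by 1.73 and 1.19. A test of the difference between genotypes called 1 gene, 0.00666% of those tested, and 682 genes (4.54%) had an unadjusted p under 0.05. That gene, the predicted gene Gm49326, was listed at 15.6 to 101 TPM in the 4 Aqp2-high MUT tubules and at 0 in the other 20 of the 24 tubules. It passed the filter on low values through these 4 tubules alone, 3 of them from MUT mouse 1, so its values are a description and the call supports nothing. The counts per genotype depended on single mice, and 1 tubule left out moved the WT count to between 174 and 755 and the MUT count to between 4 and 395. Without WT mouse 2 the WT count was 41, and without MUT mouse 4, MUT mouse 2, MUT mouse 1 or MUT mouse 3 the MUT count was 8, 11, 14 or 15.

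**Figure D5:**
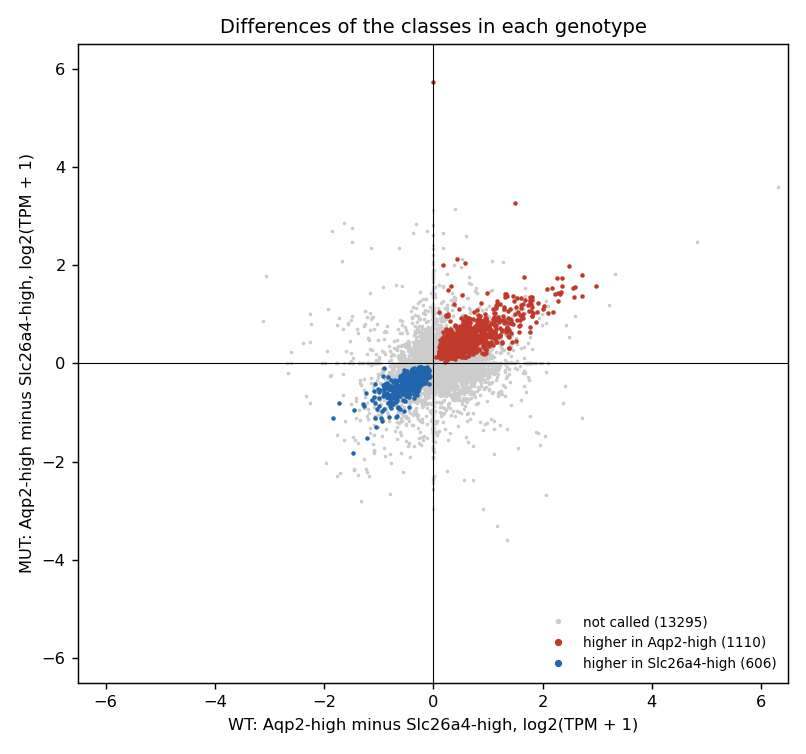
Difference between Aqp2-high and Slc26a4-high tubules in MUT against WT, in log2(TPM + 1), for 15011 genes, with the 1110 genes called higher in red and the 606 called lower in blue. The called genes lie towards the upper right and lower left, apart from Gm49326 at 0 in WT and 5.73 in MUT. They were called with both genotypes in 1 comparison, so like signs follow in part from that choice. Over all genes tested the Pearson r of the 2 differences was 0.36.

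The calls depended on which of the 2 score genes made the classes. With classes made from Aqp2 alone 760 genes were higher and 475 lower, and 658 genes were shared, 53.3% of those and 38.3% of the calls from the score. With classes made from Slc26a4 alone 397 were higher and 414 lower, and 585 were shared, 72.1% of those and 34.1% of the calls from the score.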

How the data were processed

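The authors deposited TPM for 55416 genes in 24 tubules, and the submitters' processing notes list RSEM 1.3.3 and GRCm39. The annotation is not given in the sources used here. Of the rows, 1597 shared a symbol with another and were named by gene ID. The members, gene lists and tests were chosen with earlier results of these data known. Genes averaging 1 TPM or more were fitted on log2(TPM + 1) in limma 3.58.1 (R 4.3.3) with a mean-variance trend, genotype as a covariate and mouse as a random effect (within-mouse correlation 0.18). The p-values were Benjamini-Hochberg adjusted over 15011 genes, with a threshold of 0.05. Contrasts per genotype came from a 4-group fit with the same correlation. The fits were tested on simulated data. Named genes are the score genes, per direction the 12 called genes with the largest difference, at least 5 TPM and no overlap, per list up to 4 called members with the smallest p (otherwise the 2 most abundant) and called interaction genes. Of 134 named genes 28 were added after their values were seen. Among these 28 were Fxyd4, Avpr2, Aqp3, Apela, Hsd11b2, Tmem45b, Hmx2, Adgrf5, Scnn1a, Scnn1b, Scnn1g, Wnt9b, Ccnd1, Foxi1 and Ctnnb1. Some of the named genes are not reported here. The 44 alternatives changed the pseudocount, filter, scaling, treatment of mice, class sizes, score genes and samples. Tubules are paired only by sharing a mouse. Promoter windows come from RefSeq, matched by symbol for 10383 tested genes.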

Additional observations from a re-analysis of the deposited data

Results flagged for a closer look

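Among 268 checks of a named gene in a class of 8 tubules, 10 had 1 tubule set apart from the rest by more than a chance level met in about 1 in 20 such checks. In Aqp2-high tubules, tubule 3 of WT mouse 2 had the highest Tril (30.87 TPM, median of the others 15.19) and Bok (49.2 TPM, others 22.04) and the lowest Scnn1b (845.1 TPM, others 1048). Tubule 1 of WT mouse 4 had the highest Umod (1389 TPM, others 8.7) and Slc12a3 (9.84 TPM, others 0.27), markers of the thick ascending limb and the distal convoluted tubule. Atp6v0a4 was highest in tubule 1 of MUT mouse 1 (174.1 TPM, others 126.6). In Slc26a4-high tubules, tubule 2 of WT mouse 3 had the highest Hba-a1, a haemoglobin gene (7450 TPM, others 1.72), and the lowest Adgrf5 (95.72 TPM, others 141.8). Bok was lowest in tubule 3 of WT mouse 1 (3.54 TPM, others 7.99), and Mdh2 highest in tubule 2 of WT mouse 4 (1325 TPM, others 1141).

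The difference of the classes in Gm49326 differed between genotypes by 5.73 on the log2 scale. It was listed at 0 TPM in all 20 tubules other than the 4 Aqp2-high MUT tubules, 3 of which came from MUT mouse 1. It passed the filter on low values through those 4 tubules alone, so the value is a description, and the call was lost with a pseudocount of 5.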

How the results depend on the processing

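Among the 134 named genes 109 were called, and over 44 alternatives 0 of the values of these 109 changed sign. Sign changes of the uncalled named genes were not counted. Of the 109 calls, 71 held in all 24 fits without 1 tubule or mouse. Calls higher in Aqp2-high tubules (1110) and in Slc26a4-high tubules (606) became 708 and 386 with no filter, 711 and 974 with median-ratio scaling, 1675 and 1015 with the continuous score over 24 tubules, and 580 and 189 with 6 tubules per class and genotype. With the mouse as a fixed replicate block they became 1 and 1, and all 109 named calls were lost. The counts over all genes were 446 and 309 without WT mouse 2, 665 and 372 without MUT mouse 1, and 41 and 42 without both, a setting chosen after seeing the data. That setting lost 90 of the 109 named calls. Classes by Slc26a4 alone gave 397 higher, and 723 rose with the continuous score within mice, a fit also added after seeing the data. Without 1 tubule they ran from 848 to 1121 and from 435 to 661. WT calls (708) and MUT calls (133) became 366 and 13 with no filter, 43 and 27 with the fixed block, 1231 and 458 with tubules as independent, and 174 to 755 and 4 to 395 without 1 tubule. WT calls were 284, 41, 391 and 374 without WT mice 1 to 4, and 426 and 442 without MUT mouse 1 or 2. MUT calls were 14, 11, 15 and 8 without MUT mice 1 to 4, 272 without WT mouse 2, 232 at 10 TPM or more and 19 with median-ratio scaling. They were 26 without the 3 tubules with over 1000 TPM of proximal, thick limb or erythrocyte markers, a setting chosen after seeing the data. The interaction count (1) was 0 with a pseudocount of 5, at 10 TPM or more and without those 3 tubules, 54 with the fixed block, 1 to 2 without 1 tubule, 21 without WT mouse 2, 11 without MUT mouse 1, 4 without MUT mouse 4 and 2 without WT mouse 4 or MUT mouse 2. The cause was not tested, apart from fewer samples, or more genes with no filter. What limited the number of calls was not tested, and the depth is unknown. The p-values that treat tubules of 1 mouse as related still rest on 4 mice with Aqp2-high and 6 with Slc26a4-high tubules.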
